A study of Mus musculus with 12 samples.

Results

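The 3 libraries described here hold RNA of wildtype LSK cells. This fraction of mouse bone marrow lacks lineage markers, carries Kit and Sca-1 and contains the blood stem cells with their nearest multipotent descendants. The libraries were taken by 1 rule, a genotype entry of wildtype for both miR-146a and Runx1 (titled Empty), which selected 3 of the 12 libraries. The cells were GFP-positive and had been sorted from marrow of secondary recipient mice, so they descend from donor cells that were transplanted in series. The other 9 libraries belong to genotypes that lack miR-146a, carry a mutant Runx1, or have both alterations, and none of them enters any value below. The labels do not say what Empty stands for, which vector carried GFP, or whether the 3 libraries came from separate animals, so the spread between them may be technical in part. The libraries are named by the identifiers that head their columns (A015, A040 and A053), and every set of 3 values is in that order.

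Blood stem cells renew themselves for life and are mostly out of cycle, and they give rise to multipotent progenitors that divide more and begin to express genes of single lineages. Kit, the receptor of stem cell factor, and Sca-1 (gene Ly6a) define the LSK gate, while Slamf1 and Procr are higher in stem cells and Cd48, Cd34 and Flt3 higher in the progenitors beside them. Transcription factors such as Runx1, Gata2, Meis1, Mecom and Hlf maintain the stem cell state, and miR-146a dampens the signal from Toll-like receptors by acting on Traf6 and Irak1.

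RNA was amplified to cDNA before library preparation, with no strand kept. Total counts were 6642886, 4387524 and 6350496, and 15336, 12500 and 13236 symbols had at least 1 read. The ribosomal RNA gene Rn45s took 12.96% of counts in A015 (95% Wilson interval 12.93% to 12.98%), 6.5% in A040 (6.48% to 6.52%) and 3.91% in A053 (3.89% to 3.92%). Intervals and floors here cover counting error only, because amplified reads are not independent molecules. Each pair of libraries differed by more than sampling noise (chi-square of 79.8 to 87.9 per gene on average), so none was counted as a copy. Levels between libraries are in CPM (reads of a gene scaled to a fixed library total, with TMM factors), and levels between genes are per length (TPM scale, from merged exon lengths).

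Of 24421 symbols, 11257 (46.1%) had reads in all 3 libraries, 2120 in 2, 3061 in only 1, and 7983 had none. The background share of symbols at 0 counts was thus 32.7%, and a count of 0 over the 17380906 reads allows a level of up to 0.173 CPM. A mean of at least 1 CPM was reached by 12664 symbols (51.9%), at least 10 CPM by 9150 (37.5%), at least 100 CPM by 2220 and at least 1000 CPM by 72. Protein-coding genes were at 0 in 5620 of 20517 cases (27.4%), long non-coding RNAs in 947 of 1839 (51.5%), snoRNAs in 37 of 129 (28.7%) and microRNA precursors, by annotation, in 981 of 1180 (83.1%). A040 had both the fewest reads and the fewest detected symbols.

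The most abundant transcripts per length came from antigen presentation, granule formation and protein synthesis. B2m, the light chain of MHC class I (chromosome 2, 122147686 to 122153083, GRCm38), was the highest protein-coding gene at 17151, 16432 and 15671 on the TPM scale (mean 16418, SD 740, n = 3). Mpo, the myeloperoxidase of neutrophil granules (chromosome 11, 87793581 to 87804413), came second by its mean, but its values were 1349, 26683 and 6379 on the TPM scale. Its rank thus rested on A040, where it stood above B2m, while in A015 it was far below. Rps29, a protein of the small ribosomal subunit, had 8828, 9979.6 and 13740 on the TPM scale. Eef1a1, which brings aminoacyl-tRNA to the ribosome, had 9019, 6536 and 8028 on that scale. Of the 15 highest coding genes, 10 encoded ribosomal proteins, and the other members were B2m, Mpo, Eef1a1, the chaperone Hsp90ab1 (5500, 3527 and 5426) and the calcium-binding granulocyte protein S100a9 (3259.6, 3751 and 5959).

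**Figure D1:**
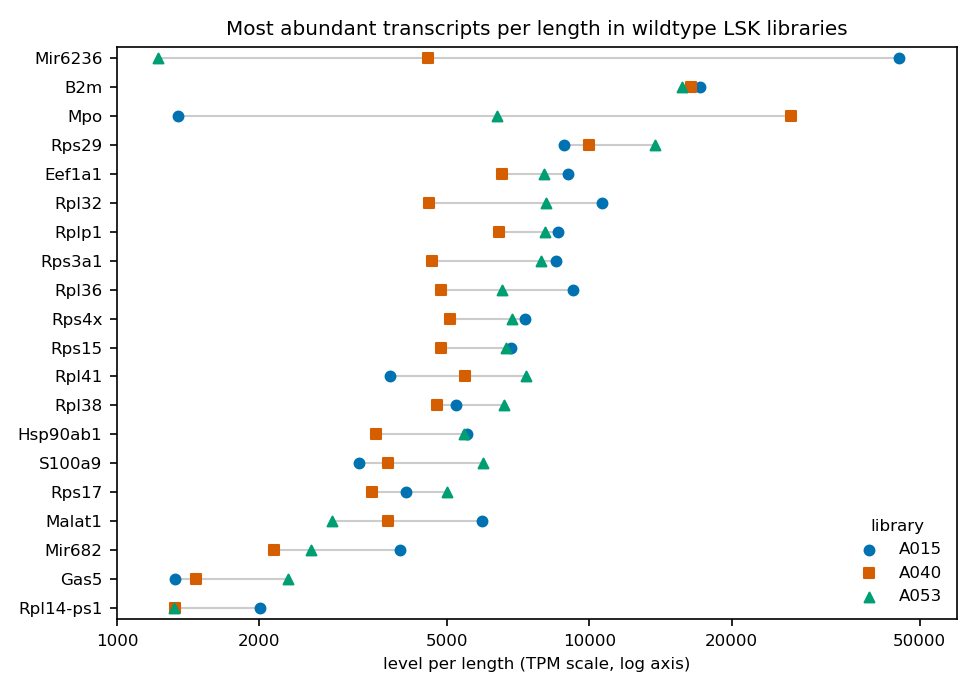
Level per length (TPM scale, log axis) of the 15 highest protein-coding and 5 highest other genes, 1 marker per library and a grey line from the lowest to the highest. B2m lies within 15671 to 17151, whereas Mpo runs from 1349 to 26683 and Mir6236 from 1219.5 to 45198.

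Among the 100 highest coding genes per length, 48 were ribosomal proteins, and the median ratio of the highest to the lowest library was 1.66. Only 8 of the 100 differed by at least 4 times in CPM, and these were Mpo, S100a8, Elane, Ctsg, Gstm1, Fam166a, Prtn3 and Mki67. S100a8, Elane, Ctsg and Prtn3 are, like Mpo, products of granulocyte precursors, Gstm1 is a glutathione transferase, and Mki67 marks cells in cycle. Fam166a shares exon sequence with Tubb4b on the other strand, so reads of the pair cannot be told apart, and Gstm1 has close paralogs. Thus 5 of the 8 belong to granulocytes, and none of the 8 encodes a ribosomal protein.

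Promoter windows are shown for 2 even and 2 uneven genes of this abundant group, since CpG content is given by class here. They are the 250 bases before the RefSeq start (GRCm38.p6), on the strand of the gene, with every CG in capitals. B2m lies at chr2:122147437-122147686 (plus strand), Eef1a1 at chr9:78481725-78481974 (minus), Mpo at chr11:87793534-87793783 (plus) and Elane at chr10:79886062-79886311 (plus). GENCODE places the starts of Mpo (87793581) and Elane (79886247) inside these windows. The Eef1a1 window lies within the GENCODE extent of its gene (78478449 to 78489151). Their CG counts therefore cover annotated gene sequence in part or in full.
B2m: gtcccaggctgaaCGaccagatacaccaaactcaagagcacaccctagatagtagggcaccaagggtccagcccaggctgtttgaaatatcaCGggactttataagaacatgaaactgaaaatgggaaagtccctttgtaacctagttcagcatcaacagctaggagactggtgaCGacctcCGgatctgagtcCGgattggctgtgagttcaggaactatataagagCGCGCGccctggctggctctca
Eef1a1: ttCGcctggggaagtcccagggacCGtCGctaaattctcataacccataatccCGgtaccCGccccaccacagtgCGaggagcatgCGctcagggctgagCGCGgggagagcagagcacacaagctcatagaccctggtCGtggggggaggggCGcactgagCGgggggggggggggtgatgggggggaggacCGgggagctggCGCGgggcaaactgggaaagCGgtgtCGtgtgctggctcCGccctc
Mpo: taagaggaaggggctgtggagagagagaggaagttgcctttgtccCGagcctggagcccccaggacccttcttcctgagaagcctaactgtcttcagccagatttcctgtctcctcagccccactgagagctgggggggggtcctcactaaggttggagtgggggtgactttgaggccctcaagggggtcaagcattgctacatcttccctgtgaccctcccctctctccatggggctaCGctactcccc
Elane: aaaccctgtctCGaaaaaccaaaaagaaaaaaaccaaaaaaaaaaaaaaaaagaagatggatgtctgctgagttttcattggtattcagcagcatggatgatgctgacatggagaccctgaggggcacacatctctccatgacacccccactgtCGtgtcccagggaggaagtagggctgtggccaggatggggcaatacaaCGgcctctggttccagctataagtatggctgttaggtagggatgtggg
These windows hold 8, 18, 2 and 3 CG dinucleotides, and none holds TATAAA on the gene's strand. Over all 27025 RefSeq windows, of which 16407 were matched to coding genes here, the median was 6 CG dinucleotides, and 8.12% held TATAAA. Coding genes with a mean of at least 100 CPM had a median of 19 (1814 of 2200 genes with a window), and those from 10 to under 100 CPM a median of 16 (5503 of 6750). Genes called even below had a median of 18 (1214 genes) and genes called variable 15 (1862 genes). CGGAAG, searched on both strands, was in 31.5% of the windows of even genes and 24.1% of those of variable genes, against 28.6% of those of coding genes from 10 to under 100 CPM and 29.2% of those at 100 CPM or more. Over all 27025 windows it was 13.8%. That set is not confined to coding genes of the count table, so it is no like-for-like background for these classes. Under 80% of the coding genes with no read had a window, so the check is void for them, and a match describes letters in a window and no binding.

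Machinery that every cell uses was among the more even parts of the transcriptome, which was not separated from its level of expression. A gene is called variable here when its highest library was at least 4 times its lowest in CPM, and even when that ratio stayed under 1.5, in both cases among the 9150 genes with a mean of at least 10 CPM. By that rule 2411 genes (26.3%) were variable and 1498 (16.4%) even, the median ratio was 2.38, and 858 genes (9.38%) reached 10 times. None of 31 RNA polymerase II, cytoskeleton and translation genes was variable and 11 were even. Their median was 649 CPM, and 4.66% of all genes from 300 to under 1000 CPM were variable. Cytosolic ribosomal proteins gave 1 variable and 27 even genes of 74, although reads of their many processed copies may be split. Their median was 805 CPM, and 30.3% of all genes from 300 to under 1000 CPM were even. Respiratory complex I subunits gave 2 variable of 35, proteasome subunits 2 of 36, and ribosome biogenesis genes, such as the nucleolar Ncl (2761, 3467 and 4587 CPM) and Npm1 (1331, 1888 and 2399 CPM), 1 of 29. The medians of these lists, in that order, were 61.1, 86.4 and 97.5 CPM. At 30 to under 100 CPM, 20.4% of all genes were variable. Mitochondrial ribosomal proteins, at 12 variable of 72 (16.7%), were closer to the background of 26.3%. Their median was 36.1 CPM, and 20.4% of all genes from 30 to under 100 CPM were variable.

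Variable genes made up a smaller share at higher levels of expression. It was 45.8% among the 3128 genes from 10 to under 30 CPM, 20.4% of 3802 from 30 to under 100, 10.4% of 1719 from 100 to under 300, 4.66% of 429 from 300 to under 1000, and 5.56% of the 72 genes at 1000 CPM or more. The even share went the other way, from 9.08% to 31.9%. A gene that passed 10 CPM through 1 library alone had to differ, so counts of variable genes among weakly expressed members say little about them. Such a gene was also bound to be highest in that library, so counts of the highest library can follow in part from the filter. With 1 library left out, leaving a single pair, 1560 genes were variable without A015, 914 without A040 and 1290 without A053, and fewer calls follow from fewer libraries. A single library stood at least 4 times above both others for 253 genes in A040 (2.77%), 134 in A015 (1.46%) and 98 in A053 (1.07%). One library stood at least 4 times below both others for 518 genes in A040 (5.66%), 391 in A053 (4.27%) and 122 in A015 (1.33%).

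**Figure D2:**
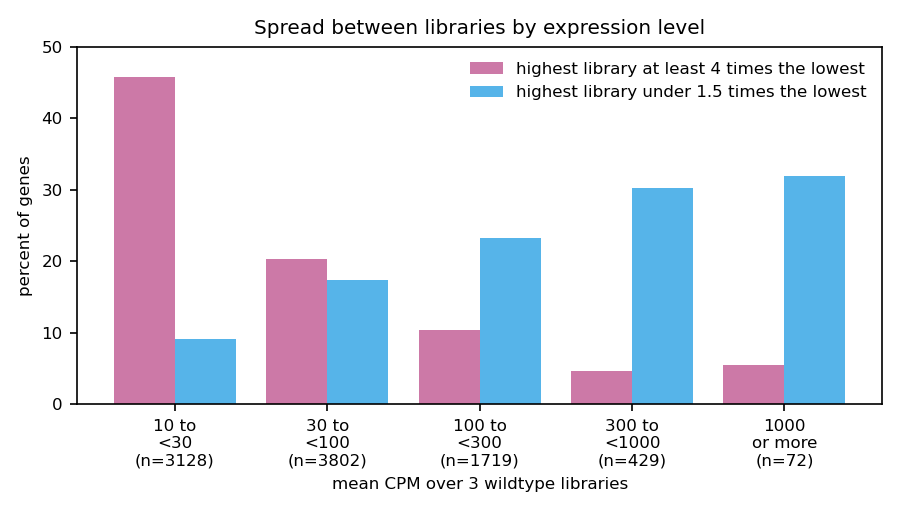
Percent of genes (vertical axis) whose highest wildtype library was at least 4 times the lowest (pink) or under 1.5 times the lowest (blue), by mean CPM over the 3 libraries (horizontal axis, number of genes in brackets). The pink share goes from 45.8% in the lowest class to 5.56% in the highest, and the blue share from 9.08% to 31.9%.

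Markers of the gate were present in every library, but the markers that divide stem cells from progenitors differed between them. Kit stood at 469, 386 and 237 CPM and Ly6a at 175, 230.1 and 50.2 CPM, both lowest in A053. Slamf1 (151.2, 207 and 33.1 CPM) and Procr (289.8, 176 and 101 CPM) were lower in A053 than in the other libraries. Cd48 (13.3, 50.6 and 117 CPM), Cd34 (76.6, 119 and 471 CPM) and Flt3, a receptor of multipotent progenitors (25.3, 13.9 and 207 CPM), were highest in A053. Cd93 (385, 426 and 709.8 CPM) and the don't-eat-me signal Cd47 (289, 389.8 and 654 CPM) were less uneven. Of 18 gate and stem cell surface markers at 10 CPM or more, 9 were variable (50% against 26.3% of all such genes), 5 without A015, 7 without A040 and 1 without A053. In bulk RNA, fewer cells of a type and less RNA per cell cannot be told apart, which holds for every marker below.

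Genes used for lineage depletion were mostly at or near 0. Cd3e, part of the T cell receptor complex, had 0.147, 0.236 and 0.155 CPM, and Cd2, Cd5 and Cd8a stayed under 1.1 CPM in each library. Il2rb, a chain of the interleukin-2 receptor, had 0 counts in all 3. Itgam, which encodes Mac-1 and is listed for depletion, was nevertheless detected at 71.6, 56 and 131 CPM, and Klrb1c, which encodes NK1.1, at 59.6, 75.6 and 2.49 CPM, while Ptprc, the pan-blood CD45 gene, had 331, 281 and 415 CPM. Which antibodies the sort used is not given in the labels. Ly6g was not analysed here.

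Stem cell transcription factors were all found, but not each of them at a clear level in every library. Tcf15 had 27.2, 0.472 and 3.73 CPM and Gata3 46.2, 31.4 and 1.71 CPM. Their share of variable genes was near that of all genes at 10 CPM or more, and above that of genes at the list's level. All 35 of the list had a mean of at least 10 CPM, 10 were variable (28.6%) and 4 were even. Of all genes at 10 CPM or more, 26.3% were variable. The share was 10.4% from 100 to under 300 CPM, where the list median of 141 CPM lay. Myb, needed for progenitor growth, had 519, 1414 and 1350 CPM. Erg, an Ets factor of stem cell maintenance, had 974, 358 and 1206 CPM, and Lmo2, a bridge in the Tal1 complex, had 808, 223 and 448 CPM. Hlf (752, 413 and 307 CPM) and Mecom (267, 96.6 and 60.6 CPM) were highest in A015. Meis1, a partner of Hox proteins, had 316, 58.6 and 149 CPM and Gata2 496, 176 and 216 CPM, so both were lowest in A040. Of the 35 factors, 18 were highest in A015 (28.2% of all genes at 10 CPM or more) and 18 were lowest in A053 (31.6% of all such genes). Without A015, 4 were variable, without A040 8, and without A053 4.

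Runx1, the DNA-binding subunit of core-binding factor, was among the steadier factors at 259, 382 and 258 CPM (mean 299.9, SD 71.5). Its partner Cbfb had 145, 247 and 205 CPM. The other family members were also present, Runx2 at 184, 139 and 304 CPM and Runx3 at 108, 227 and 224 CPM, and so was the corepressor Cbfa2t3 at 311, 133 and 164 CPM. None of the 6 core-binding factor genes at 10 CPM or more was variable. The list median was 199 CPM, and 10.4% of all genes from 100 to under 300 CPM were variable. Runx1t1, the partner of RUNX1 in a leukaemia fusion, had 9.87, 0 and 0.155 CPM and was thus detected mainly in A015.

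Expression of Hox genes was confined, among these libraries, mostly to the Hoxa and Hoxb clusters. A mean of at least 1 CPM was reached by 8 of 11 Hoxa genes, 8 of 10 Hoxb genes, 2 of 9 Hoxc genes and 0 of 9 Hoxd genes, of which 7 had no read. Of all protein-coding genes, 58.4% reached that mean and 27.4% had no read. Hoxa9, a factor of progenitor expansion, had 23.4, 17 and 55.8 CPM and Hoxa10 10.8, 14.9 and 10.4 CPM, so both were found in every library. Hoxa7 had 24.9, 0.236 and 119 CPM, which spans A040 almost without reads and A053 with the highest CPM of any Hox gene. Hoxb5, a gene with restricted expression in long-term stem cells, had 30.5, 3.07 and 0 CPM, and Hoxb4 had 20.5, 4.02 and 2.95 CPM. Hoxb3 had 28.7, 39 and 5.44 CPM. The mean of log2(CPM + 1) over the Hoxb genes was 2.94, 1.61 and 1.08. Hoxc6 (4.86, 0 and 23.6 CPM) and Hoxc9 (0.147, 13.9 and 0.155 CPM) were each seen in different libraries. Hoxa11, Hoxa13, Hoxb1 and Hoxb13, which pattern other body regions, had no read.

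**Figure D3:**
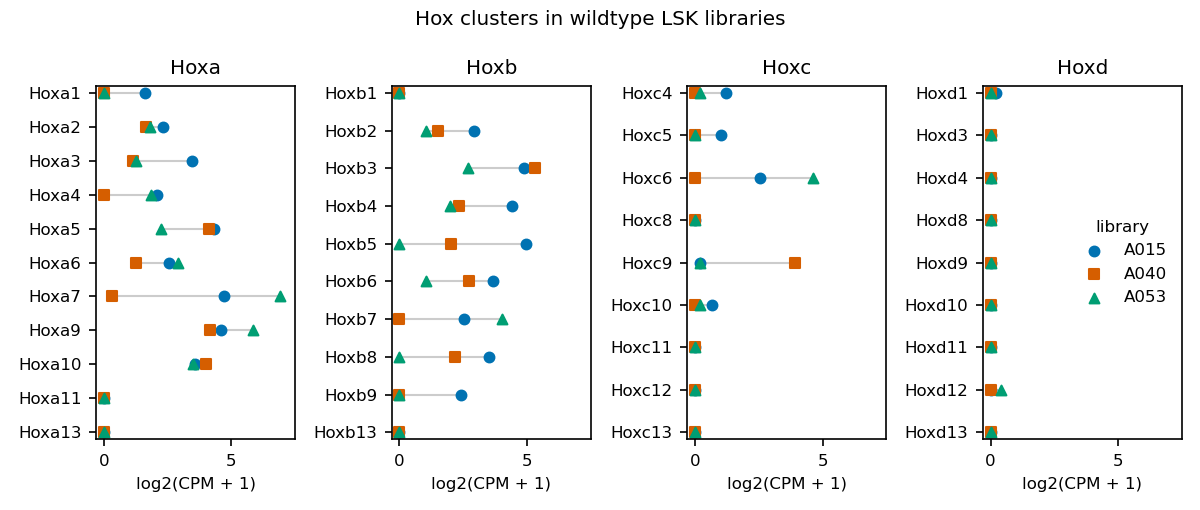
Level of each Hox gene as log2(CPM + 1), 1 panel per cluster and 1 marker per library. Hoxa and Hoxb genes spread to the right of 0, with Hoxa7 in A053 the highest point, while the Hoxd genes sit at or next to 0.

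Library A015 carried the highest level of genes enriched in stem cells. Over the 25 genes of that list, the mean of log2(CPM + 1) was 6.67, 5.45 and 4.58, and the order held under the 3 other scalings. Of 22 members at 10 CPM or more, 18 were highest in A015, where 28.2% of all such genes had their highest value. Without A015 only 19 members reached 10 CPM, so the count of 18 follows in part from the filter. Vwf, the clotting factor made by platelet-biased stem cells, had 441, 199.8 and 20.7 CPM. Aldh1a1, a retinaldehyde dehydrogenase, had 693, 143 and 143 CPM and Angpt1, the ligand of Tek, had 746, 339 and 597 CPM. Pdzk1ip1 (206, 20.3 and 9.94 CPM) and the cell-cycle inhibitor Cdkn1c (21.4, 0.236 and 1.55 CPM) stood far above the other libraries in A015. Variable members numbered 14 of the 22 (63.6%, against 26.3% of all such genes). They were 8 of 19 without A015, 12 of 23 without A040 and 6 of 23 without A053.

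Megakaryocyte and platelet genes followed the same order of libraries. Their mean of log2(CPM + 1) was 5.25, 4.26 and 3.41. Of 13 members at 10 CPM or more, 11 were highest in A015 (28.2% of all such genes). Itgb3, the beta chain of the fibrinogen receptor, had 689, 305 and 96.8 CPM, and the platelet chemokine Pf4 had 189, 134 and 22.2 CPM. F2r, a thrombin receptor, had 299, 29.3 and 80.9 CPM. The later platelet genes Ppbp (5.89, 0 and 0 CPM) and Tubb1 (0.589, 0 and 0 CPM) were near 0, and Gp6 had no read. Variable members numbered 8 of 13 (61.5%, against 26.3% of all such genes). They were 4 of 12 without A015, 7 of 14 without A040 and 2 of 13 without A053. Selp and Vwf are counted in the stem cell enriched list as well, so the lists are not independent.

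Interferon response genes and immediate early genes were also highest in A015. Interferon genes had a mean of log2(CPM + 1) of 5.75, 4.72 and 4.30. Of 29 members at 10 CPM or more, 23 had their highest value in A015 (28.2% of all such genes). Ifitm3, a membrane protein that limits virus entry, had 1016, 619 and 557 CPM, and Rtp4 had 67.2, 1.42 and 13.8 CPM. The classical effectors Isg15 (6.77, 8.50 and 0.932 CPM) and Mx1 (1.77, 0 and 0.311 CPM) were low in all 3. Of the 29 members, 11 were variable (37.9%, against 26.3% of all such genes). Variable members were 5 of 26 without A015, 6 of 29 without A040 and 5 of 29 without A053.

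Immediate early genes, which respond within minutes to growth signals, had a mean of log2(CPM + 1) of 5.35, 3.89 and 3.96. Of 17 members at 10 CPM or more, 14 were highest in A015 (28.2% of all such genes). Fos had 158, 98.7 and 23.3 CPM, Jun 573, 279 and 208 CPM, the phosphatase gene Dusp1 325, 42 and 76.3 CPM and Zfp36, an mRNA decay factor, 584, 359 and 171 CPM. Of the 17 members, 10 were variable (58.8%, against 26.3% of all such genes). Variable members were 4 of 15 without A015, 6 of 17 without A040 and 6 of 18 without A053. The share of Rn45s reads was highest in A015 as well, and its part in these results was not tested. The order of the libraries held under the 3 other scalings for the stem cell enriched, megakaryocyte, interferon, immediate early, Hoxb, neutrophil, monocyte, lymphoid priming, mitosis and replication lists. MHC class II genes showed the same library on top, with H2-Ab1 at 253, 87.2 and 159 CPM, H2-Eb1 at 105, 14.6 and 6.99 CPM and the invariant chain gene Cd74 at 257, 217 and 89.5 CPM.

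**Figure D4:**
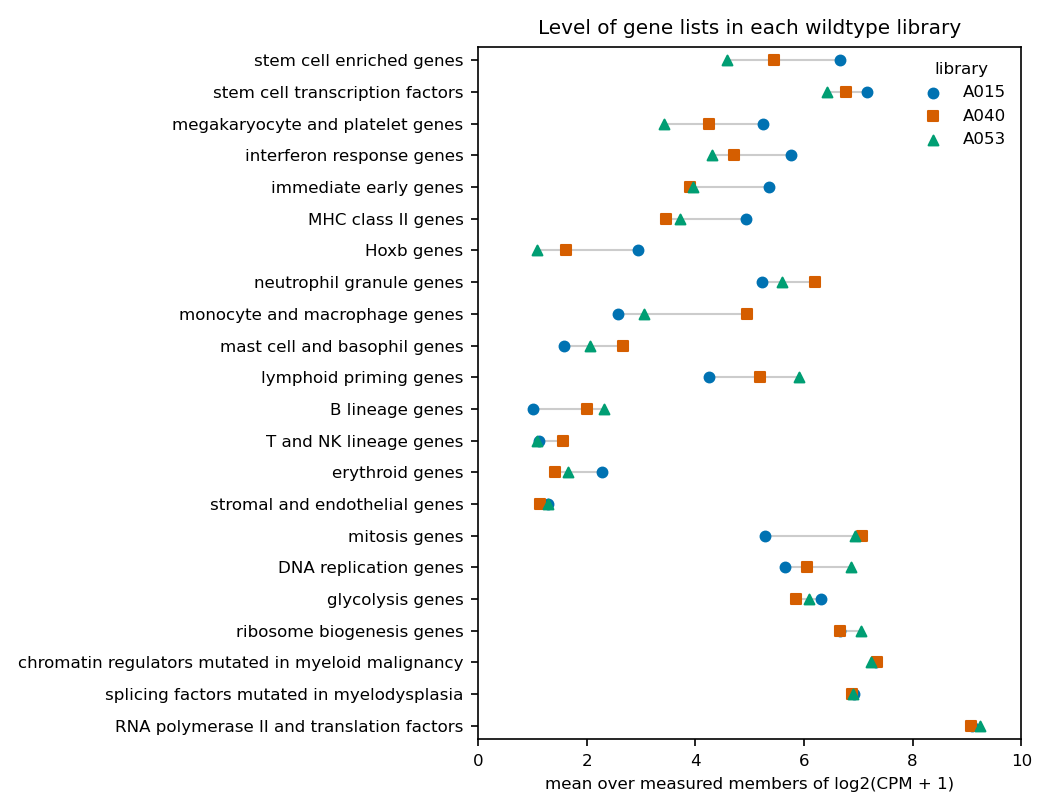
Level of 22 gene lists in each library, as the mean of log2(CPM + 1) over the measured members, with a grey line from the lowest to the highest library. Stem cell, megakaryocyte, interferon and immediate early genes were highest in A015, neutrophil and monocyte genes in A040, and lymphoid priming and DNA replication genes in A053. Ribosome biogenesis, chromatin, splicing and polymerase and translation genes differed by under 0.4 between the libraries.

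Genes of mitosis and of DNA replication had their lowest list level in A015. All 30 mitosis genes were at 10 CPM or more and all 30 were lowest in A015, against 32.8% of all genes at that level. Mki67 had 886, 3589.8 and 4480.4 CPM, Top2a, the topoisomerase that untangles chromosomes, 287, 1096 and 1095 CPM, and Ccnb1, the mitotic cyclin, 17.7, 124 and 73.2 CPM. Of the mitosis genes, 14 were variable (46.7%, against 26.3% of all genes at 10 CPM or more). This count became 0 without A015, 9 without A040 and 11 without A053. A040 and A053 therefore lay close to each other, with list levels of 5.29, 7.07 and 6.94 in the 3 libraries. Of the DNA replication genes, 24 of 30 were highest in A053, against 35.1% of all genes at 10 CPM or more. Mcm3, part of the replicative helicase, had 186, 196 and 664 CPM, Mcm5 86.3, 142 and 405 CPM and Pcna, the sliding clamp, 238, 447 and 535 CPM. The cyclin gene Ccnd2 (566, 528 and 452 CPM) and Cdk4 (135, 115 and 168 CPM) were comparatively even, and Cdk6 (179, 413 and 500.1 CPM) was lower in A015.

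Neutrophil granule genes were most abundant in A040. The summed level of the 22 measured members was 2904, 31514 and 9353.5 CPM, and none of the 22 was at 0 in all 3 libraries. Mpo alone had 1158, 24425 and 5835 CPM, a 21.1-fold range. Elane, the neutrophil elastase, had 64.8, 1569 and 235 CPM, Ctsg, a serine protease of the same granules, 65.5, 1322 and 387 CPM, and Prtn3, proteinase 3 of those granules, 182, 1119.7 and 281 CPM. Ms4a3, which marks granulocyte and monocyte progenitors, had 14.1, 408 and 51.3 CPM. Among genes of later granules, Ltf was also highest in A040 at 60.5, 106 and 79.4 CPM, whereas Camp had 74.1, 12.5 and 109.7 CPM and Mmp9 3.09, 0 and 0 CPM. Of 16 members at 10 CPM or more, 9 were variable (56.2%, against 26.3% of all such genes). Of the same 16, 10 were highest in A040, where 36.7% of all such genes had their highest value. The variable members numbered 2 without A040, 6 without A015 and 9 without A053.

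Monocyte and macrophage genes also stood highest in A040, and some of them were almost confined to it among these 3 libraries. The 27 members summed to 408 CPM in A015, 2254.5 in A040 and 662 in A053, and none was at 0 in all 3. Ly6c2, the antigen of inflammatory monocytes, had 27.7, 687 and 33.7 CPM and the monocyte chemokine receptor gene Ccr2 5.45, 116 and 4.97 CPM. The complement genes of tissue macrophages were C1qa at 0, 22.7 and 0.155 CPM, C1qb at 0.884, 39 and 0.466 CPM and C1qc at 1.62, 89.5 and 0.777 CPM. Vcam1 had 3.98, 136 and 2.64 CPM and the mannose receptor gene Mrc1 3.24, 52.2 and 2.64 CPM, while Adgre1, which encodes F4/80, had 0.295, 1.65 and 5.13 CPM. Cx3cr1 had its reads in A053 instead, at 0.147, 0 and 16.6 CPM. Of 18 members at 10 CPM or more 14 were variable (26.3% of all such genes) and 14 highest in A040 (36.7% of all such genes). Members that passed 10 CPM only through A040 were bound to be high there. Both counts therefore follow in part from the filter. Without A040, 4 of the 10 that still reached 10 CPM were variable, and without A015 or A053 the counts were 11 and 15 of 21 each. Whether the signal came from progenitors or from other cells in the sort was not tested.

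Of 4 genes known from antibody-secreting cells, which belong to no list of their own and were picked after their values were seen, each was highest in A040. Jchain, which joins polymeric antibodies, had 8.25, 473 and 3.88 CPM, Pou2af1, a B cell coactivator, 3.24, 733 and 3.73 CPM and Prdm1, the regulator of plasma cell fate, 1.77, 149 and 0 CPM. Irf4 had 0.884, 116 and 6.06 CPM. Outside A040 these 4 genes were under 9 CPM. The mature B cell genes Ms4a1 (0, 13.2 and 0.466 CPM) and Cd79a (0.295, 7.09 and 0.311 CPM) had their highest values in A040 too, and Pax5 had no read in any library. Immunoglobulin constant genes were not analysed here. Mast cell and basophil genes were divided by library as well, with Prss34 at 0, 25.7 and 0 CPM and Prg2 at 3.09, 45.6 and 0.311 CPM in favour of A040, and Cpa3 at 6.04, 34.3 and 112 CPM and Fcer1a at 0.589, 0.236 and 13 CPM in favour of A053.

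Lymphoid priming genes had the order opposite to the stem cell genes, with A053 highest. Their mean of log2(CPM + 1) was 4.25, 5.20 and 5.90. Dntt, the terminal transferase that adds bases during antigen receptor joining, had 4.27, 0.709 and 323 CPM, which corresponds to 29, 3 and 2082 reads. Satb1, a chromatin organiser of early lymphoid cells, had 10.3, 47.2 and 279 CPM and Notch1, the receptor of T lineage choice, 46.7, 16.8 and 195 CPM. Il7r, the interleukin-7 receptor, had 1.33, 2.60 and 26.4 CPM. Mef2c was highest in A015 at 329, 136 and 143 CPM. Of 12 members at 10 CPM or more, 7 were variable (58.3%, against 26.3% of all such genes), all by at least 10 times (9.38% of all such genes). The counts were 5 without A015, 7 without A040 and 3 of 10 without A053.

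Genes of committed B cell precursors were nearly specific to A053 among these libraries. Ebf1, the factor that specifies the B lineage, had 0.442, 0.236 and 45.8 CPM, Igll1, a surrogate light chain gene, 0.147, 0 and 19.9 CPM, and Vpreb3 0.147, 0.236 and 21.1 CPM. Rag2, part of the recombinase, had 0.736, 2.36 and 20.2 CPM. Of the 21 measured B lineage genes, 16 had a mean of at least 1 CPM (76.2%, against 58.4% of all protein-coding genes). Only 4 had a mean of at least 10 CPM, and the 21 summed to 43.4, 573 and 478 CPM.

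Genes of the other mature lineages were at low levels in most cases. A mean of at least 1 CPM was reached by 11 of 24 erythroid, 8 of 22 T and NK and 8 of 19 stromal and endothelial genes (45.8%, 36.4% and 42.1%, against 51.9% of all symbols). Of the erythroid genes 8 had no read (33.3%, close to the 32.7% of all symbols), and they include the globin genes Hbb-bs, Hbb-bt, Hba-a1 and Hba-a2, whose near-identical copies make a count of 0 uncertain. Car2, a carbonic anhydrase also found in early progenitors, had the highest mean CPM of the list, at 459, 98.7 and 150.8 CPM. Gata1, the erythroid and megakaryocytic factor, had 6.48, 2.36 and 9.63 CPM and Klf1 3.24, 0 and 3.42 CPM. Of the T and NK genes 5 had no read (22.7%), namely Gzma, Gzmb, Il2rb, Tbx21 and Zap70, while Nkg7 (27.5, 303 and 162 CPM) and Cd247 (76.7, 112 and 189 CPM) were detected in all 3. Stromal and endothelial genes had 4 of 19 members at 0 (Cdh5, Bglap, Col1a1 and Pdgfra) and summed levels of 87.0, 82.2 and 146.9 CPM, to which Pecam1 gave 37.4, 43 and 84.2 CPM.

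Receptors for blood cytokines were expressed broadly, with 31 of 32 at a mean of 1 CPM or more (96.9%, against 58.4% of all protein-coding genes). Il6st, the common chain of the interleukin-6 family, had 67.7, 165 and 66.9 CPM. Csf2rb, the common beta chain for interleukin-3 and GM-CSF, had 25, 218 and 81.4 CPM and Csf3r, the G-CSF receptor, 47.7, 112 and 98.3 CPM. Csf1r, the M-CSF receptor, was at 5.01, 36.4 and 27.8 CPM and Epor, the erythropoietin receptor, at 6.18, 0.472 and 0.621 CPM. These 3 myeloid receptors (Csf2rb, Csf3r and Csf1r) were lowest in A015. Of 28 receptors at 10 CPM or more 13 were variable (46.4%, against 26.3% of all such genes). Without A015 7 were variable, without A040 8 and without A053 7. Cxcr4, the receptor that retains stem cells in marrow, had 24, 201 and 101 CPM.

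Toll-like receptors were low while the signalling chain below them was present. Tlr2 had 11.9, 17 and 20 CPM, Tlr4 30, 14.9 and 5.44 CPM, and Tlr1, Tlr5 and Tlr9 stayed under 1.1 CPM in each library. Tlr8 had reads in A040 only, at 0, 77.2 and 0 CPM, and Cd180, a receptor homologue of B and myeloid cells, had 20.9, 143 and 145 CPM. All 28 genes of the MyD88 chain had a mean of at least 1 CPM, against 58.4% of all protein-coding genes. Of 26 at 10 CPM or more, 5 were variable (19.2%). Of all genes at 10 CPM or more, 26.3% were variable. The share was 20.4% from 30 to under 100 CPM, where the list median of 39.1 CPM lay. Variable genes of the chain numbered 4 without A015, 0 without A040 and 2 without A053. Myd88, the adaptor, had 23.9, 25.5 and 7.14 CPM, Irak1, the kinase it recruits, 109, 234 and 144 CPM, and Traf6, the ubiquitin ligase next in line, 90.1, 74.2 and 165 CPM. Irak2 was low at 6.33, 2.83 and 8.54 CPM. Tab2 (298, 351 and 524 CPM) and Nfkb1 (112, 144 and 123 CPM) were the steadier members of the chain.

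The microRNA that acts on this chain could not be read from these libraries. Mir146 and Mir146b, the genes that yield miR-146a and miR-146b, had 0 counts in all 3 wildtype libraries, which allows up to 0.173 CPM for the precursor transcript and says nothing of the mature form. The mature forms are shown because they share their seed (bases 2 to 8, in capitals), from RefSeq on GRCm38.p6. That of miR-146a lies on the minus strand at chr11:43374435-43374456 and that of miR-146b on the plus strand at chr19:46342790-46342811.
miR-146a-5p: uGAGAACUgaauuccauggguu
miR-146b-5p: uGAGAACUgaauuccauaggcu
They are identical at 20 of 22 bases. Of 14 genes listed as miR-146a targets, 12 had a mean of at least 1 CPM (85.7%, against 58.4% of all protein-coding genes). Egr1 was highest in A015 (416, 242 and 93.8 CPM), Irak1 in A040, and Traf6 and Notch1 in A053, so these targets had no common order of libraries. Notch2 had 329, 261 and 197 CPM, Smad4 57, 35.4 and 57 CPM, and Cd40lg had no read.

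Genes that are recurrently mutated in myeloid malignancy were expressed in the wildtype cells. Their lists differed in the share of variable genes, which was not separated from their level of expression. The medians of the chromatin, splicing and signalling lists were 155, 111 and 117 CPM. Of all genes from 100 to under 300 CPM, 10.4% were variable. All 27 chromatin regulators had a mean of at least 1 CPM, against 58.4% of all protein-coding genes, and 2 of 26 at 10 CPM or more were variable (7.69%). Kmt2a, the MLL methyltransferase gene, had 975, 585 and 544 CPM, Smc1a of the cohesin ring 1149, 677 and 1248 CPM, Asxl1 130.5, 125 and 196 CPM and the demethylase gene Tet2 80.7, 136 and 143 CPM. Dnmt3a, a DNA methyltransferase, had 228, 81.5 and 157 CPM and Ezh2, the polycomb methyltransferase, 80.6, 152 and 251 CPM, in opposite order between A015 and A053. Splicing factors had 1 of 12 variable, with Sf3b1 at 484, 688 and 659 CPM and Srsf2 at 463, 719 and 661 CPM. Polycomb and DNA methylation genes had 6 of 20 variable (30%, against 26.3% of all genes at 10 CPM or more). The share was 20.4% from 30 to under 100 CPM, where the median of that list, 64 CPM, lay. Among the signalling genes 5 of 28 were variable (17.9%), and Trp53 had 220.2, 276 and 223 CPM, Jak2 112, 125 and 80 CPM and Nras 419, 261 and 324 CPM. Cebpa, a granulocyte factor, was low at 2.65, 18.9 and 15.4 CPM, and Wt1 had no read.

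The genes that differed most between libraries were partly lineage genes and partly genes of no list. The 5 coding genes of largest ratio with their highest value in A015 (mean of at least 50 CPM) were Ehd3 (189, 26.2 and 2.64 CPM), Trim47 (198, 116 and 3.42 CPM), Acot2 (132, 111 and 4.66 CPM), Nynrin (130.5, 4.96 and 84.6 CPM) and Sult1a1 (121, 118 and 4.66 CPM). Trim47, Acot2 and Sult1a1 were high in A040 as well and were thus low in A053 rather than particular to A015. Those with their highest value in A040 were Nkx1-2 (0.295, 183 and 0 CPM), Pou2af1, Prdm1, Sgms2 (6.77, 503 and 2.80 CPM) and Slc17a8 (0.442, 178 and 0.466 CPM), and each of the 5 was near 0 in both other libraries. Nkx1-2 encodes a homeobox factor, Sgms2 a sphingomyelin synthase and Slc17a8 a vesicular glutamate transporter. Exon sequence of Nkx1-2 is shared with Gm16764 on the other strand.

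In A053 the genes of the same rule included Hic2 (10.2, 1.18 and 711 CPM), Dntt, Zfp622 (65.8, 3.07 and 126 CPM) and Satb1. Hic2 encodes a zinc finger repressor and had 69, 5 and 4580 reads, so its reads came almost all from 1 library. It shares exon sequence with Gm26635 on the other strand and with Gm49573 on its own. Zfp622 was low in A040 and present in the other libraries. The 10 most even coding genes were Mdn1, Prmt3, Macf1, Lsp1, Prr14l, Naa35, Rnf113a2, Picalm, Ccnl1 and Isy1. Mdn1, an AAA ATPase of ribosome assembly, had 410.1, 414 and 413 CPM, and Macf1, which links actin to microtubules, had 760.3, 765 and 752 CPM. Their ratios of highest to lowest library ran from 1.01 to 1.03.

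**Figure D5:**
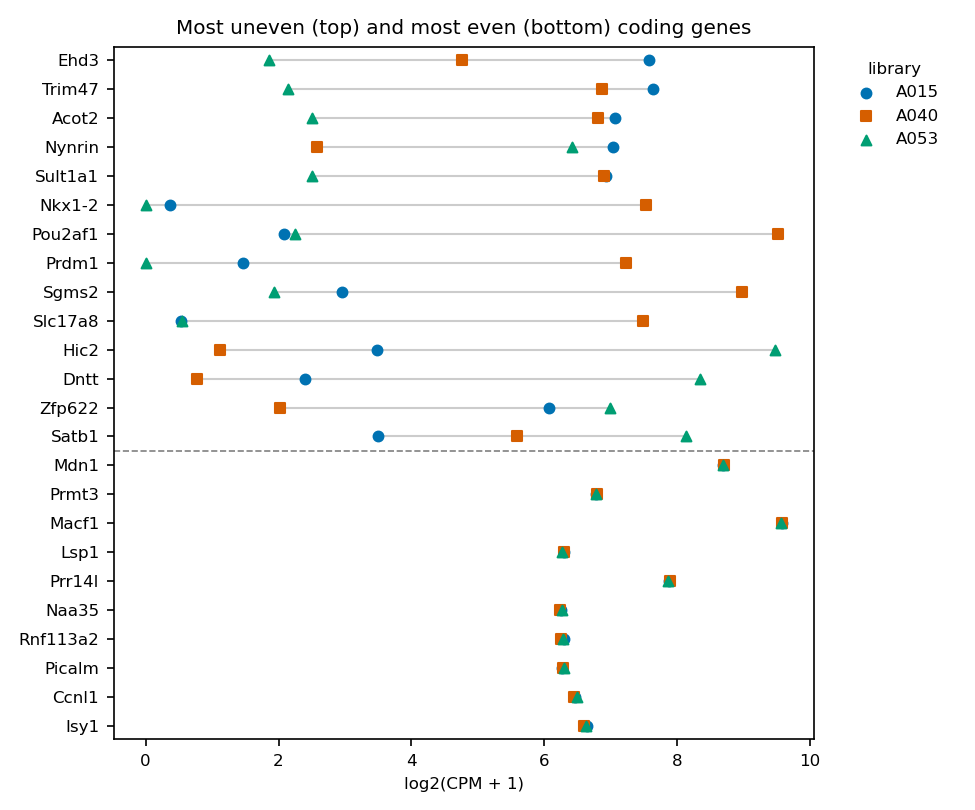
Level of the named coding genes in each library as log2(CPM + 1). Above the dashed line are the genes per library with the largest ratio between libraries (5 for A015, 5 for A040 and 4 for A053), and below it the 10 with the smallest. Nkx1-2 and Prdm1 reach 0 in A053, while the markers of the even genes lie on top of each other.

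Large families of sensory and barrier genes were silent. Of 55 families with at least 10 symbols, 10 had at least 80% of their symbols at 0 counts, against 32.7% of all symbols. They were olfactory receptors (1033 of 1125, 91.8%), vomeronasal type 1 receptors (202 of 209, 96.7%), vomeronasal type 2 receptors (106 of 122, 86.9%), taste receptors (33 of 38, 86.8%), trace amine receptors (12 of 15, 80%), keratin-associated proteins (50 of 53, 94.3%), beta defensins (40 of 43, 93.0%), alpha defensins (11 of 13, 84.6%), the prolactin family (24 of 26, 92.3%) and symbols of the Mir series (976 of 1180, 82.7%). Apart from the Mir series, which holds 204 symbols with reads and Mir6236, no member of these families reached a mean of 10 CPM. The highest olfactory receptor, Olfr99, had 8.39, 5.43 and 0 CPM, with 0 reads in A053. Keratins were at 0 in 34 of 48 cases, and 2 of them reached a mean of 10 CPM. These were Krt18, a keratin of simple epithelia, at 113, 135 and 84 CPM and Krt77 at 0.295, 0 and 35.7 CPM. Many members of these families are near-identical copies of each other, so a count of 0 can also follow from reads that map to several places.

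Among other families, solute carriers had 213 of 373 members at a mean of 1 CPM or more (57.1%, near the 51.9% of all symbols), and zinc finger genes of the Zfp series 323 of 368 (87.8%). Replication-dependent histone genes, whose mRNAs lack poly(A) tails, were at 0 counts in 11 of 68 cases (16.2%, against 32.7% of all symbols). Hist1h4d had 159.6, 163 and 212 CPM. Glycolysis was led by Ldha (747, 648 and 740.4 CPM), Gpi1 (289.8, 633 and 398 CPM) and Pkm (396, 417 and 479 CPM). Of its 18 genes at 10 CPM or more, 3 were variable (16.7%, against 26.3% of all such genes). The share was 20.4% from 30 to under 100 CPM, where the list median of 92.5 CPM lay. Ldhb, the other lactate dehydrogenase chain, was at 90.1, 3.07 and 32.8 CPM and the glucose transporter gene Slc2a3 at 189, 64 and 20.3 CPM. Eno1 had under 1 CPM in each library, and it has near-identical copies, so this level is uncertain. The survival gene Bcl2 had 314, 309.9 and 780.0 CPM and Mcl1 277, 232 and 207 CPM, while Hrk and Bik had no read.

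Non-coding transcripts were led per length by Mir6236, a 123-base annotation, at 45198, 4554 and 1219.5 on the TPM scale. Its order over the libraries was that of the Rn45s share, and whether it holds ribosomal RNA reads was not tested. Malat1, a nuclear long non-coding RNA, was next at 5922, 3749.6 and 2851 on the TPM scale, followed by Mir682, the snoRNA host Gas5 (1327, 1468 and 2303) and Rpl14-ps1. Neat1, the scaffold of paraspeckles, had 249.9, 185 and 101 CPM. Xist, the RNA that coats the inactive X chromosome, had 4792, 3089 and 768 CPM, while its antisense partner Tsix, whose reads cannot be separated without strand, had 309, 229 and 31.5 CPM. Y-linked genes were low, with Kdm5d at 0.147, 12.8 and 7.46 CPM, Uty at 0, 10.9 and 0 CPM and Eif2s3y at 0, 8.98 and 0.621 CPM, so reads of both kinds were present in A040 and A053. Their source was not tested.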

How the data were processed

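The authors deposited raw read counts per gene symbol, 1 column per library. Only the 3 wildtype columns were used, and no column was left unmapped. The submitters' processing notes name the mouse build mm10 with HISAT2 2.0.4, featureCounts 1.5.2 and FastQC 0.11.2. Not given in the sources used here are the annotation, the strand option and the rule for reads that map more than once.

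Counts were scaled by TMM (edgeR 4.0.16, R 4.3.3) within these 3 libraries, which held 4387524 to 6642886 counts. Levels per length used merged exons of GENCODE M21 (GRCm38), with Rn45s left out. By symbol 23384 of 24421 symbols matched, 651 by an older name, and 386 did not match. A count floor of 3 reads was 0.452, 0.684 and 0.472 CPM per library. There was 1 group, so no test was made and no p-value is given.

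Named were the 15 coding and 5 other genes highest per length, the 5 most uneven genes per library and the 10 most even. Further names were the 3 highest, the most uneven, the most even and the silent members of each of 45 lists, the 2 highest of each of 61 families, and a fixed set of stem cell and lineage genes. Some named genes and list members are not reported here. List members named beside these were chosen after their values were seen. The members and lists were chosen with earlier results of these data known. Scaling, thresholds, filters and leaving out each library were tried as alternatives.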

Additional observations from a re-analysis of the deposited data

How the results depend on the processing

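The count of variable genes depended on its definition. It was 2411 as reported, 858 at a ratio of at least 10, 5703 at a ratio of at least 2, 556 with a mean of at least 50 CPM, 5247 with a mean of at least 1 CPM and 8953 with no filter. Leaving out 1 library gave 914 to 1560, where a single pair remains. Plain library size, DESeq2 size factors and leaving out Rn45s gave 2428, 2410 and 2525. The common biological coefficient of variation, a description of spread from edgeR, was 0.566 over 9639 genes. It was 0.924 with no filter on low counts, and 0.517 to 0.587 with 1 library left out. The order of the 3 libraries by list level changed for 7 of 45 lists with DESeq2 size factors, 3 with plain library size and 1 without Rn45s. No order of the libraries is stated above for those lists. Symbols without a read numbered 8886 when a single read was allowed and 8339 to 10072 with 1 library left out. Of the 100 highest coding genes per length, 91 were shared when the longest transcript replaced merged exons. No paired analysis was possible because the results come from no test and the columns carry no replicate number.

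The 3 libraries hold 1 group, so spread between animals, sorting, amplification and depth cannot be told apart. A040 was the shallowest library, and differences of genes near 0.684 CPM were not detectable there.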
